A study of Mus musculus with 4 samples.

Results

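The genes described here encode AMP-activated protein kinase (AMPK) and the kinases that switch it on. They are the 7 genes of its subunits (Prkaa1, Prkaa2, Prkab1, Prkab2, Prkag1, Prkag2 and Prkag3) and the genes of the upstream kinases LKB1 (Stk11) and CaMKK2 (Camkk2). They were chosen by name, as 9 of the 57180 genes in the table, and every one was matched to a single Ensembl identifier. RNA came from the tibialis anterior (TA), a fast muscle at the front of the lower leg, with 2 libraries of an exercise group and 2 of a control group. The mice were male C57BL/6J wild-type animals by the study's methods, aged 3 weeks when the training began and 8 weeks when muscle was taken. The exercise group was first accustomed to the treadmill over 5 days of 30 min from 8 m/min upward, then trained for 4 weeks at 12 m/min, 45 min per day, 5 days per week. The control group was age-matched and sedentary. The text of the study gives neither the number of mice behind a library nor the delay between the last run and collection, so the p-values measure only the spread between these libraries, which may be technical.

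The level of a gene was given as TPM, its transcript abundance corrected for length and set to a fixed total per library. TPM keeps no read counts, so the depth of a value is unknown. Differences were tested with limma on log2(TPM + 1) over the 13288 genes that reached 1 TPM in 2 or more libraries. This scale understates the change of low genes. The summed TPM of the 50 most abundant genes made up 50.5 and 45.8% in the exercise libraries, against 62.1 and 59.0% in the control libraries, and over all tested genes the log2 fold change had a median of 0.53. The differences of the AMPK genes are therefore given again after rescaling by the median of ratios, which sets the libraries to a common median gene and moved that median by -0.52. Acta1, the skeletal muscle actin that marks the labelled tissue, was at 14994 and 12245 TPM in the exercise libraries, against 22218 and 27044 TPM in the control libraries. The libraries also differed by group in sex-linked genes. Xist, transcribed from the inactive X chromosome of female cells, was listed at 0 and 0.07 TPM in the exercise libraries, against 14.9 and 11.7 TPM in the control libraries. Ddx3y, a Y-linked gene, was at 41.2 and 37.6 TPM in the exercise libraries, against 10.04 and 12.06 TPM in the control libraries. Eif2s3y, also Y-linked, was at 16.7 and 25.2 TPM in the exercise libraries, against 0.3 and 0 TPM in the control libraries. The Xist and Eif2s3y values of the control libraries are at odds with the male sex given in the study's methods. Sex and exercise cannot be told apart in this comparison. All 9 genes lie on autosomes (chromosomes 1, 3, 4, 5, 10 and 15).

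AMPK is a sensor of cellular energy made of a catalytic alpha subunit, a scaffolding beta subunit that also binds glycogen, and a gamma subunit that binds AMP, ADP and ATP. When ATP is used up, for example in a contracting muscle, AMP binds the gamma subunit and the activation loop of the alpha subunit is kept phosphorylated, mainly by LKB1. CaMKK2 can phosphorylate the same loop in response to calcium. Active AMPK promotes glucose uptake and fat oxidation and restrains the synthesis of fat, glycogen and protein. Each subunit has isoforms from separate genes, of which alpha2, beta2 and gamma3 are those typical of skeletal muscle fibers, while alpha1, beta1 and gamma1 are found in most cell types. The annotation carried by the table lists a protein kinase domain and an adenylate sensor domain for both alpha genes, a carbohydrate-binding domain for both beta genes and CBS domains for the gamma genes.

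The promoters of the alpha and beta genes are shown because the main result is a difference between groups in the isoform shares of these subunits. Each sequence runs 5′ to 3′ from 250 bases before to 50 bases after the start of the gene in RefSeq (GRCm38.p6), with every CG dinucleotide in capitals. The positions are chr15:5143611-5143910 (plus strand) for Prkaa1, chr4:105109849-105110148 (minus strand) for Prkaa2, chr5:116024379-116024678 (minus strand) for Prkab1 and chr3:97657962-97658261 (plus strand) for Prkab2.
Prkaa1: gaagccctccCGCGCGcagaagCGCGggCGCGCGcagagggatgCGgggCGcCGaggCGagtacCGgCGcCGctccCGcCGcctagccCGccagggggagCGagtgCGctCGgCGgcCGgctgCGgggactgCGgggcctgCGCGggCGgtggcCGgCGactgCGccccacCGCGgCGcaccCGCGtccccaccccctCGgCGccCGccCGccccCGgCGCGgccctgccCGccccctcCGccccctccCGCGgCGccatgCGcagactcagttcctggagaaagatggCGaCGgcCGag
Prkaa2: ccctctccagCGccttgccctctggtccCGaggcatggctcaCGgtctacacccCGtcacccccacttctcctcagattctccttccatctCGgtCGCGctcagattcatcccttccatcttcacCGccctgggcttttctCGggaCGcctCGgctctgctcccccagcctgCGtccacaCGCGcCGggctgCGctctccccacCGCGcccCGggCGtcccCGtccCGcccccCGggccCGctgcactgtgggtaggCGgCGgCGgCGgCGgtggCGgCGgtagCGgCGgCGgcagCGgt
Prkab1: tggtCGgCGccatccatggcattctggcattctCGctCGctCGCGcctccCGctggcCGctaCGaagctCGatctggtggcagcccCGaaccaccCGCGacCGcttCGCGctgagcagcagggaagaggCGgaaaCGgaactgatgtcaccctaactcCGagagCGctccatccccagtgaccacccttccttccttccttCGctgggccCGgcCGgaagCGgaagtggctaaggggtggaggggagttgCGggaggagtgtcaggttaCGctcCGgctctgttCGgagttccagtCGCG
Prkab2: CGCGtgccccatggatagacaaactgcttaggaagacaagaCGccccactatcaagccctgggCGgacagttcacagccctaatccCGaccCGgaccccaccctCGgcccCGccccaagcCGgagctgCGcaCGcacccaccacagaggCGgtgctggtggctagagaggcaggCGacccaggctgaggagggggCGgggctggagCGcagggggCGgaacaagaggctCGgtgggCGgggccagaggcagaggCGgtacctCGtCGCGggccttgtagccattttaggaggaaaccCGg
Prkaa1 had 52 CG dinucleotides in this window and Prkaa2 had 35. Prkab1 had 30 and Prkab2 had 23. The more widely used gene of each subunit thus held more CG dinucleotides than its muscle-typical counterpart, and all 4 were above the median of 7 over 32851 RefSeq promoters, of which 99.4% had fewer than Prkaa1 and 78.5% fewer than Prkab2. None of the 4 windows held an E-box, the sequence CANNTG, which is its own reverse complement and so covers both strands. That sequence is bound by myogenic factors such as MyoD and was present in 72.3% of all promoters. Prkag3 held 1 E-box, shown in capitals in its promoter at chr1:74748906-74749205 (minus strand), where it lies shortly before the start of the gene.
Prkag3: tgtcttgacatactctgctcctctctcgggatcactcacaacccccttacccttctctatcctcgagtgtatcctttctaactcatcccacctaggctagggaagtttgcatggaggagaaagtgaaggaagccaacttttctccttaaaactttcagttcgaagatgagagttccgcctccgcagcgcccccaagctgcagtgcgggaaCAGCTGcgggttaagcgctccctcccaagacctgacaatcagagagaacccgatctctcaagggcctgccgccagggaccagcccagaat
All 9 genes had an entry, and Prkag2 had 3. Among the other genes, Prkag1 held 1 E-box, Stk11 held 2, the 3 starts of Prkag2 held 2, 3 and 2, and Camkk2 held none. A match is a description of the letters in the window, and binding was not measured.

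In the exercise libraries 4 of the 9 rose and 2 fell (limma, adjusted p under 0.05). Among all tested genes 55.3% were higher and 6.19% lower. After rescaling 2 members of the set were higher and 4 lower, against 10.6 and 16.8% of all tested genes. Prkaa1, Prkaa2, Prkab2 and Camkk2 kept both call and direction on that scale. All 9 genes were above 1 TPM in every library.

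**Figure D1:**
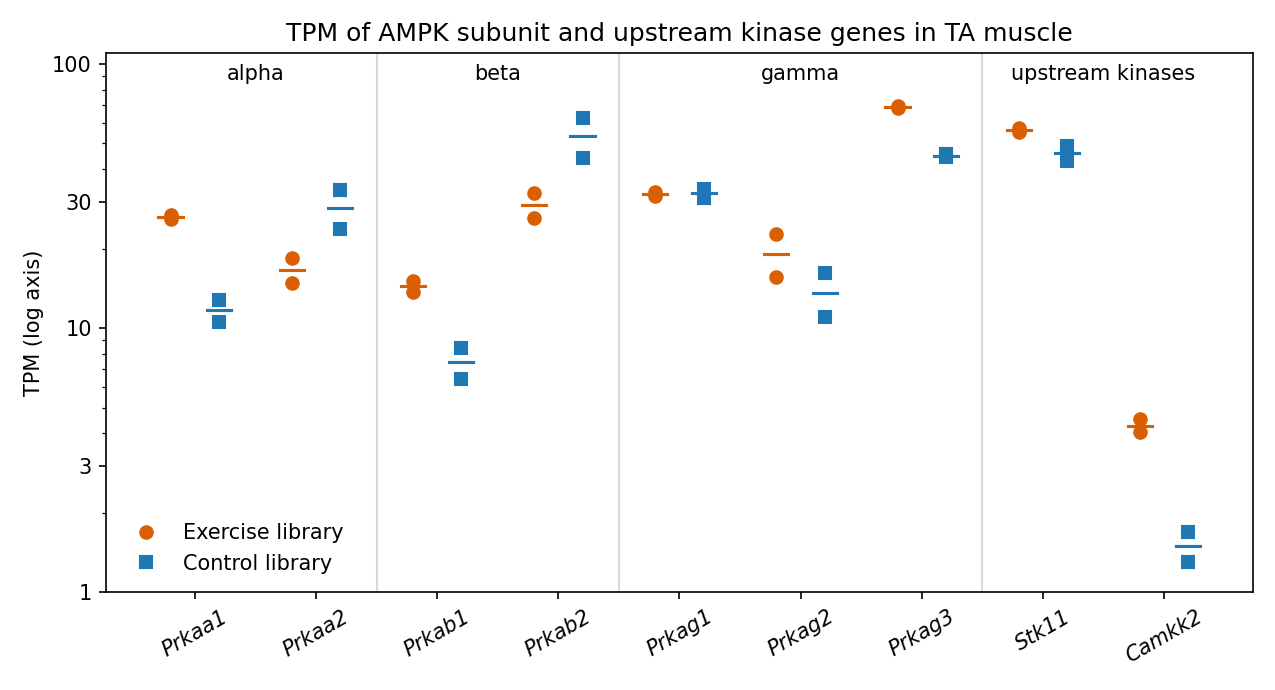
TPM (log axis) of each gene in the 2 exercise libraries (circles, left of each gene) and the 2 control libraries (squares, right), with short lines at the group means. Prkaa1 and Prkab1 lie higher and Prkaa2 and Prkab2 lower in the exercise libraries, while the points of Prkag1 and of Prkag2 overlap between groups.

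The catalytic subunits moved in opposite directions. Prkaa1 (ENSMUSG00000050697), the gene of alpha1, was at 25.81 and 26.89 TPM in the exercise libraries, against 10.53 and 12.81 TPM in the control libraries. Both exercise libraries were above both control libraries, and the group means differed 2.26-fold. Its log2 fold change was 1.12 (SE 0.147, 95% interval 0.76 to 1.47, limma adjusted p = 0.0030), above that of 92.7% of all tested genes. After rescaling it was 0.51 (limma adjusted p = 0.024). Prkaa2 (ENSMUSG00000028518), the gene of alpha2, was at 18.45 and 14.81 TPM in the exercise libraries, against 23.76 and 33.40 TPM in the control libraries. The groups did not overlap, and the control libraries differed more from each other than the exercise libraries did. Its log2 fold change was -0.73 (SE 0.20, 95% interval -1.22 to -0.25, limma adjusted p = 0.019), with 4.03% of tested genes below it, and -1.34 after rescaling (adjusted p = 0.013). The call on TPM as deposited was lost without exercise replicate 2 (adjusted p = 0.13) and without control replicate 2 (adjusted p = 0.059), where the log2 fold changes were -0.59 and -0.50, and with no filter on low values (adjusted p = 0.095). Prkaa1 made up 58.3 and 64.5% of the summed alpha TPM in the exercise libraries, against 30.7 and 27.7% in the control libraries, so that the isoform with the higher level was alpha1 in both exercise libraries and alpha2 in both control libraries. The share of Prkaa1 averaged 61.4 ± 4.36% in the exercise libraries and 29.2 ± 2.11% in the control libraries (SD, n = 2 each), a difference of 32.2 percentage points. A share within a library does not depend on how libraries are scaled to each other. With 2 libraries against 2, an exact permutation test (two-sided) cannot give a p below 0.333, and it gave 0.333 here.

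The beta subunits showed the same opposition. Prkab1 (ENSMUSG00000029513), the gene of beta1, was at 13.71 and 15.04 TPM in the exercise libraries, against 8.41 and 6.42 TPM in the control libraries, with no overlap. Its log2 fold change was 0.88 (SE 0.168, 95% interval 0.48 to 1.28, limma adjusted p = 0.0064). The call was lost after rescaling (0.30, adjusted p = 0.25, 95% interval -0.15 to 0.75), after quantile normalization (0.33, adjusted p = 0.21), without the 50 highest genes (0.54, adjusted p = 0.075) and without exercise replicate 2 (0.82, adjusted p = 0.056). Prkab2 (ENSMUSG00000038205), the gene of beta2, was at 32.34 and 26.15 TPM in the exercise libraries, against 44.00 and 62.58 TPM in the control libraries. Both exercise libraries were below both control libraries. Its log2 fold change was -0.83 (SE 0.201, 95% interval -1.31 to -0.35, limma adjusted p = 0.013), with 3.40% of tested genes below it, and -1.45 after rescaling (adjusted p = 0.012). The call on TPM as deposited was lost without exercise replicate 2 (-0.68, adjusted p = 0.097) and with no filter on low values (adjusted p = 0.078). Prkab1 made up 29.8 and 36.5% of the summed beta TPM in the exercise libraries, against 16.0 and 9.30% in the control libraries, a difference of 20.5 percentage points (exact permutation p = 0.333, two-sided). Unlike alpha2, beta2 kept the larger share in all 4 libraries, at 70.2 and 63.5% in the exercise libraries and 84.0 and 90.7% in the control libraries.

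**Figure D2:**
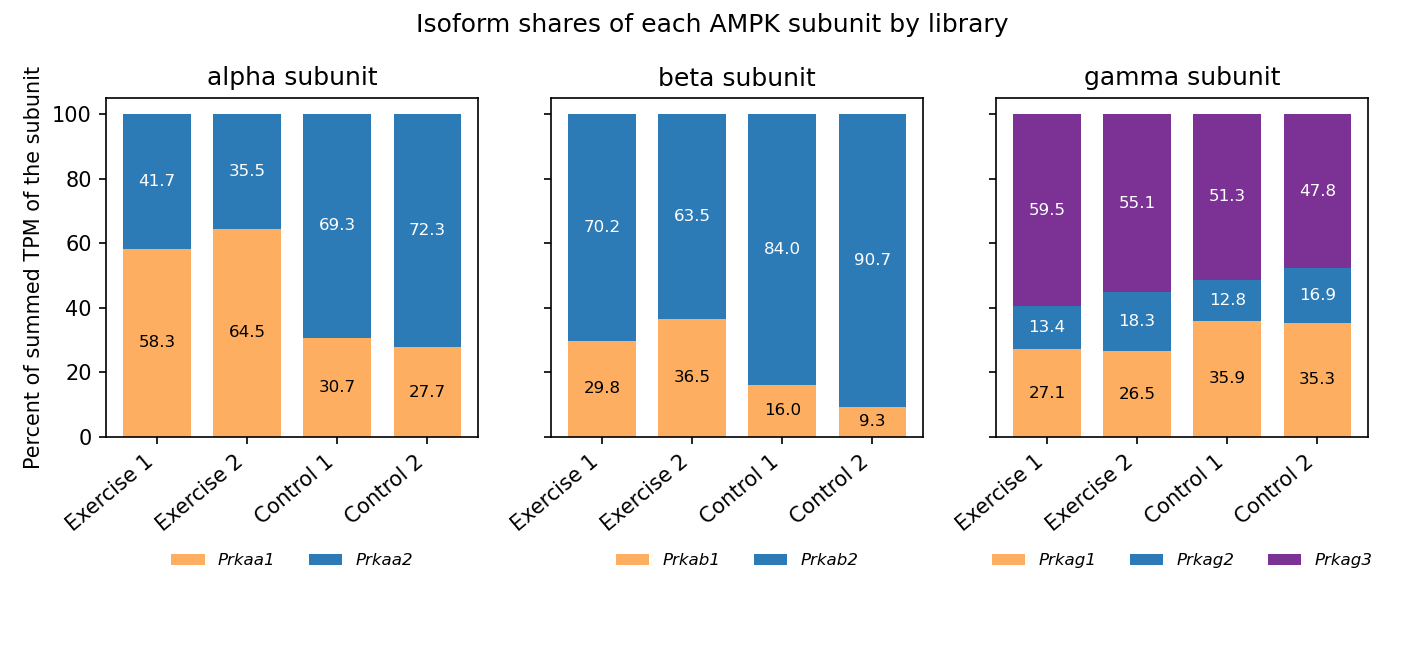
Percent of the summed TPM of each AMPK subunit that each isoform gene contributed, as stacked bars for the 2 exercise and the 2 control libraries. Prkaa1 holds 58.3 and 64.5% of the alpha sum in the exercise libraries, against 30.7 and 27.7% in the control libraries, and Prkab1 holds 29.8 and 36.5% of the beta sum, against 16.0 and 9.30%.

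The muscle-typical alpha2 and beta2 genes kept a nearly fixed ratio to each other across all libraries. Prkab2 was 1.75 and 1.77 times Prkaa2 in the exercise libraries, against 1.85 and 1.87 times in the control libraries, although each gene ranged more than this between libraries of 1 group. By contrast Prkab1 was 0.531 and 0.559 times Prkaa1 in the exercise libraries, against 0.799 and 0.501 times in the control libraries. The ratio of Prkaa1 to Prkaa2 was 3.87 times as high in the exercise as in the control libraries (geometric means), and that of Prkab1 to Prkab2 was 3.53 times as high. Neither ratio overlapped between groups, and the exact permutation test gave 0.333 for each (two-sided). Among the 8661 genes averaging 5 TPM or more, the genes whose profile over the 4 libraries lay nearest to Prkaa2 were Hspa1l, Nudt4 and Sqor. Their Euclidean distances to it, on centred log2(TPM + 1) values, were 0.053, 0.055 and 0.083, and Prkab2 was the fourth nearest at 0.097. Nearest to Prkab2 were Slc38a4, Mapt and Nudt4, at 0.057, 0.081 and 0.081. The order of such distances over 4 libraries is a description, without a test.

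Of the gamma subunits, Prkag3 was called higher on TPM as deposited and Prkag1 lower after rescaling. Prkag3 (ENSMUSG00000006542), the gene of gamma3, which is found mainly in fast glycolytic fibers, was at 69.24 and 68.16 TPM in the exercise libraries, against 44.36 and 45.57 TPM in the control libraries. The libraries of a group lay close together and the groups did not overlap. Its log2 fold change of 0.60 (SE 0.118, limma adjusted p = 0.0069) was near the median of all genes and turned to -0.025 after rescaling (95% interval -0.26 to 0.21, adjusted p = 0.85), and its call was also lost after quantile normalization (0.17, adjusted p = 0.24), without the 50 highest genes (0.21, adjusted p = 0.13), without exercise replicate 1 (0.59, adjusted p = 0.055) and without exercise replicate 2 (0.61, adjusted p = 0.067). Prkag1 (ENSMUSG00000067713), the gene of the widely expressed gamma1, was at 31.52 and 32.82 TPM in the exercise libraries, against 31.06 and 33.66 TPM in the control libraries. These values overlapped, with a log2 fold change of -0.0074 (95% interval -0.31 to 0.30, limma adjusted p = 0.96). Relative to the other genes Prkag1 was lower, at -0.63 after rescaling (adjusted p = 0.010), -0.48 after quantile normalization (adjusted p = 0.016) and -0.40 without the 50 highest genes (adjusted p = 0.021). Prkag2 (ENSMUSG00000028944), whose human counterpart carries mutations in a glycogen-storing heart disease, was at 15.63 and 22.66 TPM in the exercise libraries, against 11.04 and 16.13 TPM in the control libraries. The groups overlapped, and the log2 fold change of 0.47 (limma adjusted p = 0.13) turned to -0.13 after rescaling. It was called higher in the fit with the replicate number as a block (adjusted p = 0.021) and without control replicate 2 (0.72, adjusted p = 0.043), but had a log2 fold change of 0.21 without control replicate 1 (adjusted p = 0.46) and without exercise replicate 2 (adjusted p = 0.55).

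Within the gamma sum, Prkag3 held the largest share in every library, at 59.5 and 55.1% in the exercise libraries and 51.3 and 47.8% in the control libraries. Prkag1 held 27.1 and 26.5% in the exercise libraries, against 35.9 and 35.3% in the control libraries, a difference of -8.80 percentage points with a spread of 0.379 and 0.443 (SD) within the groups (exact permutation p = 0.333, two-sided). The share of Prkag2 overlapped between groups, at 13.4 and 18.3% in the exercise libraries and 12.8 and 16.9% in the control libraries (exact permutation p = 0.667). Gamma3, like alpha2 and beta2, is typical of muscle fibers, yet its ratio to alpha2 was 3.75 and 4.6 in the exercise libraries, against 1.87 and 1.36 in the control libraries. The profiles nearest to that of Prkag3 were those of Rundc1, Klhl5 and Cd2ap, at distances of 0.020, 0.029 and 0.030, and Prkaa2 was far from it, at 1.38.

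**Figure D3:**
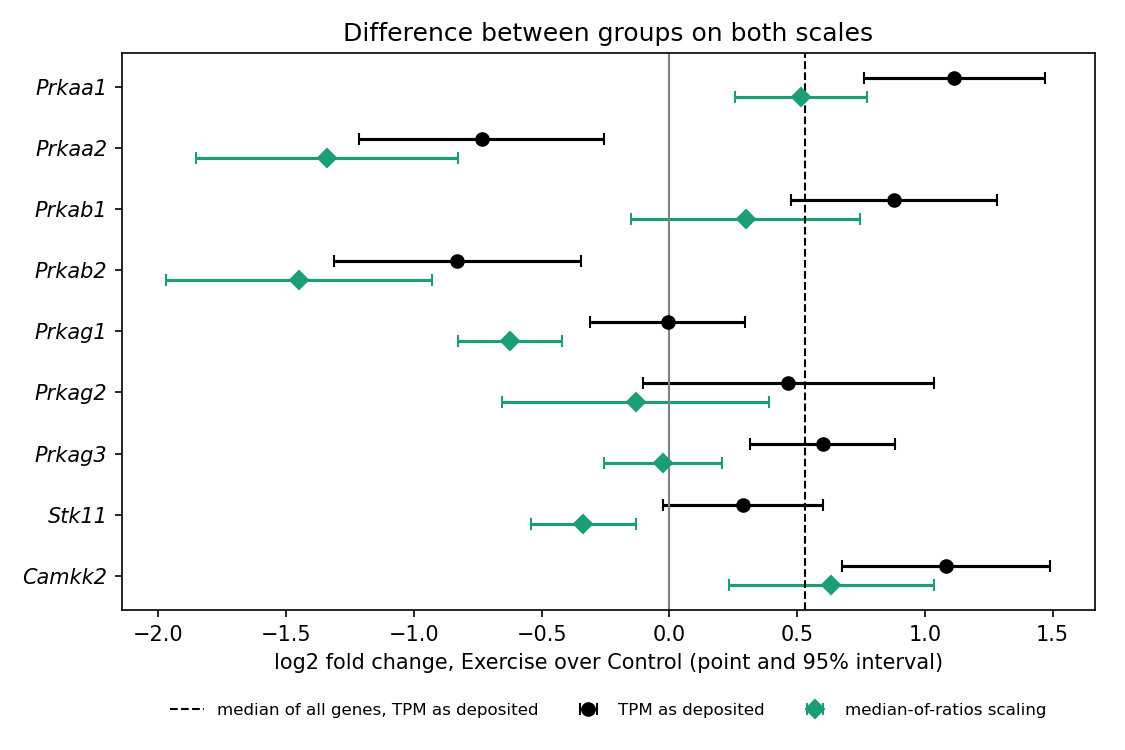
Log2 fold change (exercise over control) of each gene with its 95% interval from limma, on TPM as deposited (circles) and after rescaling by the median of ratios (diamonds), with a dashed line at the median of all tested genes on TPM as deposited (0.53). Prkaa2 and Prkab2 lie left of 0 on both scales, Prkaa1 and Camkk2 right of 0 on both, and the interval of Prkag3 spans 0 after rescaling.

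TPM was also summed over the isoforms of each subunit. The alpha sum was 44.26 and 41.70 TPM in the exercise libraries, against 34.29 and 46.21 TPM in the control libraries, which overlapped (exact permutation p = 1.0, two-sided). The beta sum was 46.05 and 41.19 TPM in the exercise libraries, against 52.41 and 69.00 TPM in the control libraries. The gamma sum was 116.39 and 123.64 TPM in the exercise libraries, against 86.46 and 95.36 TPM in the control libraries. Neither of these 2 sums overlapped between groups (exact permutation p = 0.333 for each). Within a library, the gamma sum was 2.53 and 3.0 times the beta sum in the exercise libraries, against 1.65 and 1.38 times in the control libraries, and the beta sum was 1.04 and 0.988 times the alpha sum, against 1.53 and 1.49 times. RNA levels were measured here, and the protein subunits and the complexes that they form were not.

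Of the upstream kinases, Camkk2 rose and Stk11 did not pass the test. Camkk2 (ENSMUSG00000029471), the calcium-dependent kinase, was the lowest of the 9 genes, at 4.52 and 4.03 TPM in the exercise libraries, against 1.30 and 1.69 TPM in the control libraries. The groups did not overlap and the means differed 2.86-fold. Its log2 fold change was 1.08 on the log2(TPM + 1) scale (SE 0.170, 95% interval 0.67 to 1.49, limma adjusted p = 0.0040) and 1.52 with a pseudocount of 0.01, and it was 0.63 after rescaling (adjusted p = 0.041). Stk11 (ENSMUSG00000003068), which encodes LKB1, was at 55.04 and 57.31 TPM in the exercise libraries, against 42.91 and 48.93 TPM in the control libraries. Although these values did not overlap, its log2 fold change of 0.29 (95% interval -0.024 to 0.60, limma adjusted p = 0.094) lay under the median of all genes, and it turned to -0.34 after rescaling, where it was called lower (adjusted p = 0.038). Stk11 was 12.2 and 14.2 times Camkk2 in the exercise libraries, against 33.0 and 28.9 times in the control libraries, and was the higher of these kinases in all 4 libraries.

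LKB1 works in a complex with the pseudokinase STRAD and the scaffold MO25. Of the 4 genes of these partners, 1 was higher and 0 lower (limma, with 1 and 0 at an unadjusted p under 0.05), and after rescaling 0 were higher and 2 lower (0 and 2 unadjusted). Over all tested genes 55.3% were higher and 6.19% lower, and 10.6 and 16.8% after rescaling. The one that rose was Strada, at 13.12 and 15.16 TPM in the exercise libraries, against 9.56 and 10.52 TPM in the control libraries (log2 fold change 0.45, limma adjusted p = 0.034, and -0.13 after rescaling). No partner was called higher after quantile normalization or without control replicate 1, exercise replicate 1 or exercise replicate 2. Stradb was at 28.79 and 24.99 TPM in the exercise libraries, against 30.52 and 30.31 TPM in the control libraries. It was not called on TPM as deposited and had -0.79 after rescaling (adjusted p = 0.018). The scaffold gene Cab39 was at 71.50 and 75.86 TPM in the exercise libraries, against 58.14 and 64.25 TPM in the control libraries, and Cab39l at 10.69 and 8.57 TPM, against 7.42 and 8.35 TPM. Neither passed the test on TPM as deposited, and Cab39 was lower after rescaling (-0.36, adjusted p = 0.026).

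The activation loop of AMPK is also reached by the kinases TAK1 (Map3k7) and CaMKK1 and is dephosphorylated by phosphatases of the PP2C and PP2A families. Of 6 tested genes of this kind, 4 were higher and 0 lower (0 lower at an unadjusted p under 0.05, limma), with 2 higher and 2 lower after rescaling. Their median log2 fold change was 0.63, against 0.53 for all tested genes. As a share of all tested genes, 55.3% were higher and 6.19% lower, and 10.6 and 16.8% after rescaling. The phosphatase genes Ppm1e and Ppm1f were higher on both scales. Ppm1e was at 5.07 and 5.31 TPM in the exercise libraries, against 2.15 and 2.02 TPM in the control libraries (log2 fold change 1.00, limma adjusted p = 0.0037, and 0.52 after rescaling). Ppm1f was at 12.59 and 13.60 TPM in the exercise libraries, against 6.08 and 6.54 TPM in the control libraries (0.95, adjusted p = 0.0036, and 0.37 after rescaling). Map3k7 and the PP2A catalytic subunit gene Ppp2ca had log2 fold changes of 0.66 and 0.61 that became 0.055 and -0.011 after rescaling. Ppm1a and Ppp2cb were not called on TPM as deposited, at -0.31 and 0.23, and were lower after rescaling, at -0.95 and -0.38. Camkk1, at 0.85 and 1.14 TPM in the exercise libraries against 0.56 and 0.45 TPM in the control libraries, reached 1 TPM in only 1 library and was not tested.

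Folliculin and its partners bind AMPK, and the sestrins link stress and nutrients to AMPK and mTORC1. Of these 6 genes, 5 were higher and 0 lower (0 lower at an unadjusted p under 0.05, limma), with a median log2 fold change of 0.68, and 1 was higher and 1 lower after rescaling. The shares over all tested genes were 55.3% higher and 6.19% lower, and 10.6 and 16.8% after rescaling. Flcn, the gene of folliculin, was at 42.14 and 49.63 TPM in the exercise libraries, against 21.70 and 24.01 TPM in the control libraries (log2 fold change 0.97, SE 0.142, limma adjusted p = 0.0035), and stayed called after rescaling (0.35, adjusted p = 0.038). Its partner genes Fnip1 and Fnip2 had 0.70 each, and 0.096 and 0.29 after rescaling, where neither was called. The sestrin genes Sesn2 and Sesn3 had 0.66 and 0.54 and were not called after rescaling, while Sesn1 was not called at 0.26 and was lower after rescaling, at -0.35.

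Of 23 genes of AMPK substrates, 11 were higher and 2 lower, with a median log2 fold change of 0.46, and after rescaling 0 were higher (2 at an unadjusted p under 0.05, limma) and 7 lower. Across all tested genes 55.3% were higher and 6.19% lower, and 10.6 and 16.8% after rescaling. Acacb, the gene of the acetyl-CoA carboxylase of muscle mitochondria (ACC2), whose product malonyl-CoA restrains fat oxidation, had the largest fall. It was at 9.89 and 11.77 TPM in the exercise libraries, against 21.54 and 27.82 TPM in the control libraries (log2 fold change -1.11, SE 0.173, limma adjusted p = 0.0039, and -1.71 after rescaling). The other gene that fell was Lipe, hormone-sensitive lipase, at 4.15 and 5.42 TPM in the exercise libraries, against 6.45 and 8.96 TPM in the control libraries (-0.58, adjusted p = 0.044, and -1.13 after rescaling). Lipe is also made by adipocytes, whose marker Adipoq was at 0.21 and 1.43 TPM in the exercise libraries, against 8.06 and 38.4 TPM in the control libraries, and the part of these cells in its fall was not tested. Acaca, the cytosolic carboxylase of fat synthesis (ACC1) and, like Lipe, chosen once its values were known, was at 5.19 and 6.26 TPM in the exercise libraries, against 2.32 and 3.78 TPM in the control libraries (0.75, adjusted p = 0.023, and 0.24 after rescaling, adjusted p = 0.39). The ratio of Acaca to Acacb was 0.525 and 0.532 in the exercise libraries, against 0.108 and 0.136 in the control libraries (exact permutation p = 0.333, two-sided), which is a higher share of the widely expressed isoform. The gamma subunit went the other way, as the share of the widely expressed Prkag1 averaged 26.8% in the exercise libraries, against 35.6% in the control libraries. Pikfyve, a lipid kinase, was at 5.01 and 4.58 TPM in the exercise libraries, against 1.84 and 2.27 TPM in the control libraries (0.93, limma adjusted p = 0.0051), and was not called after rescaling, at 0.45. Txnip, which restrains glucose uptake, was at 128.89 and 208.20 TPM in the exercise libraries, against 53.75 and 90.69 TPM in the control libraries (1.22, adjusted p = 0.015, and 0.59 after rescaling, adjusted p = 0.18). The other abundant members, the glycogen synthase gene Gys1 and the mitochondrial fission gene Mff, were not called, at 0.15 and 0.38, and Gys1 was lower after rescaling, at -0.48.

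LKB1 also activates a family of kinases related to AMPK. Of 10 tested genes of this family, 8 were higher and 0 lower (0 lower at an unadjusted p under 0.05, limma), with a median log2 fold change of 0.76, and 4 were higher and 0 lower after rescaling (5 and 2 at an unadjusted p under 0.05). For all tested genes the shares were 55.3% higher and 6.19% lower, and 10.6 and 16.8% after rescaling. Sik1, a salt-inducible kinase that acts on the regulators of muscle gene transcription, had the smallest p, at 40.93 and 45.39 TPM in the exercise libraries, against 15.41 and 16.27 TPM in the control libraries (log2 fold change 1.39, SE 0.131, limma adjusted p = 0.0028, and 0.78 after rescaling). Nuak1 was at 22.96 and 26.28 TPM in the exercise libraries, against 9.88 and 12.60 TPM in the control libraries (1.07, and 0.47 after rescaling), and Nuak2 at 3.54 and 3.62 TPM, against 1.27 and 1.44 TPM (0.96, and 0.53 after rescaling). These 3 stayed called after rescaling, while Mark3, a kinase of cell polarity, had 0.66 and then 0.046. Brsk1, called higher on both scales, was at 2.08 and 2.96 TPM in the exercise libraries, against 0.76 and 0.65 TPM in the control libraries. It passed the filter only through the exercise libraries, so the filter favoured its call. Brsk2 and Mark1 were below the minimum and were not tested.

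CaMKK2 is switched on by calcium-bound calmodulin and also activates some, though not all, of the other calmodulin-dependent kinases. Of 9 tested genes of calmodulin and calmodulin-dependent kinases, 3 were higher and 0 lower (0 lower at an unadjusted p under 0.05, limma), with a median log2 fold change of 0.11, and 1 was higher and 5 lower after rescaling. Over all tested genes the shares were 55.3% higher and 6.19% lower, and 10.6 and 16.8% after rescaling. Camk2d, a kinase of calcium signalling, was at 47.75 and 61.12 TPM in the exercise libraries, against 25.35 and 34.38 TPM in the control libraries (0.85, limma adjusted p = 0.011, and 0.23 after rescaling). Camk1g was near the lower limit of the table, at 1.15 and 1.47 TPM in the exercise libraries, against 0.17 and 0.22 TPM in the control libraries (0.95, and 0.72 after rescaling, called on both scales). Camk1g passed the filter only through the exercise libraries, so the filter favoured its call as higher. It was also the gene of this list that was higher after rescaling. The calmodulin gene Calm2 was higher at 0.39 and not called after rescaling, at -0.25, whereas Calm3 was not called at 0.026 and was lower after rescaling, at -0.60. Camk1d and Camk4 were below the minimum.

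**Figure D4:**
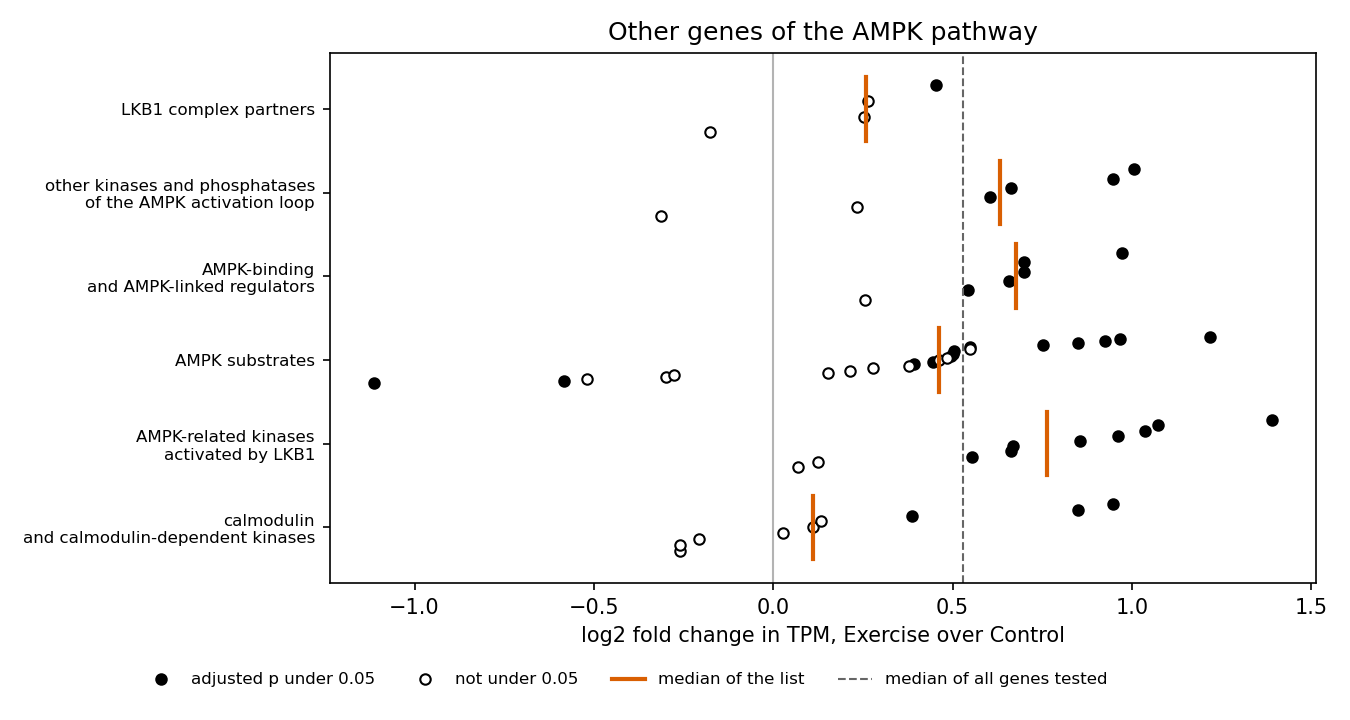
Log2 fold change in TPM (exercise over control) of each tested gene in the 6 lists of other AMPK pathway genes, filled where the adjusted p from limma was under 0.05, with the list median as a bar and the median of all tested genes (0.53) as a dashed line. Among the substrates, Acacb lies far to the left at -1.11, and among the AMPK-related kinases Sik1 lies farthest right at 1.39.

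The fall of Prkaa2 and Prkab2 stood beside a fall of fiber genes in the same libraries. In bulk RNA, fewer cells of a type and less RNA per cell cannot be told apart. The summed TPM of 8 general fiber markers was 26387 and 21912 in the exercise libraries, against 40422 and 46309 in the control libraries, with 4 of the 8 lower and 0 higher (limma, 0 higher at an unadjusted p under 0.05), and 7 lower after rescaling. Of 9 fast fiber markers 7 were lower on both scales, with sums of 97205 and 82300 TPM in the exercise libraries, against 121290 and 127030 TPM in the control libraries. Among all tested genes 6.19% were lower, and 16.8% after rescaling. Of 7 slow fiber markers 5 were higher, and 4 after rescaling, where 55.3 and 10.6% of all tested genes were higher. The slow markers summed to 8340 and 13338 TPM in the exercise libraries, against 3162 and 4180 TPM in the control libraries. The exercise libraries differed from each other in slow myosin light chains, with Myl2 at 8.74 and 1872 TPM, against 67.5 and 198 TPM in the control libraries. Their part in the isoform shares was not tested. Because alpha1 and beta1 are also made by cells other than fibers, markers of such cells were summed. The 5 endothelial markers summed to 53.7 and 49.1 TPM in the exercise libraries, against 51.3 and 34.1 TPM in the control libraries, and none was called, with 1 lower after rescaling. The 6 macrophage markers summed to 19.5 and 28.4 TPM in the exercise libraries, against 45.1 and 35.3 TPM in the control libraries, with 1 of 5 tested lower on both scales. That gene, Lyz2, was the largest part of each sum, at 8.95 and 13.53 TPM, against 28.67 and 23.47 TPM. Of the others tested, Mrc1 and Cd68 had log2 fold changes of 0.30 and 0.20, and Csf1r and C1qa of -0.32 and -0.47. The 5 markers of fibro-adipogenic progenitors summed to 141 and 167 TPM in the exercise libraries, against 244 and 125 TPM in the control libraries, with none called and 1 lower after rescaling. Adipocyte markers summed to 265 and 317 TPM in the exercise libraries, against 360 and 714 TPM in the control libraries, with 4 of 5 tested lower on both scales. Most of each sum was Fabp4, at 264 and 306 TPM, against 307 and 475 TPM, which was not called on TPM as deposited. Adipoq was at 0.21 and 1.43 TPM, against 8.06 and 38.4 TPM, and Cfd at 0.80 and 8.24 TPM, against 38.9 and 174 TPM. Plin1 and Cidec passed the filter only through the control libraries. The 5 satellite cell markers, whose cells fuse with growing fibers, summed to 23.2 and 25.6 TPM in the exercise libraries, against 14.6 and 11.0 TPM in the control libraries, with 3 of 4 tested higher, against 55.3% of all genes, and 1 of 4 after rescaling, against 10.6% of all genes. The Schwann cell markers summed to 57.0 and 20.6 TPM in the exercise libraries, against 103 and 14.5 TPM in the control libraries, and the red cell markers to 609 and 571 TPM, against 699 and 163 TPM, with none called in either list on either scale. The part of these cells in the levels of Prkaa1 and Prkab1 was not tested.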

How the data were processed

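By the paper's account, mRNA of TA muscle was sequenced. The authors deposited 1 table of TPM (length-corrected abundance at a fixed library total) for 57180 genes, rounded to 2 decimals, in 4 library columns. Per the submitters' processing notes, the tools were fastp, HISAT2 and StringTie and the build GRCm39, with no versions. The paper instead gives SeqPrep and Sickle for trimming, and it used DEGseq, a count test that TPM do not allow. The labels name an Illumina Stranded mRNA Prep kit and the paper a NEBNext Ultra kit, so strandedness is uncertain. Exons of Prkab2, Prkag1, Prkag2 and Stk11 overlap antisense genes in GENCODE vM21, of which those listed in the table stood at no more than 2.11 TPM.

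The model was fitted on log2(TPM + 1) in R 4.3.3 with limma 3.58.1 (trended eBayes, no covariate), with Benjamini-Hochberg adjustment over 13288 genes and a threshold of 0.05, and was tested on simulated data. Median-of-ratios factors were 1.20 and 1.31 for the exercise and 0.775 and 0.836 for the control libraries. Shares, sums and ratios were computed in Python 3.11.15 with pandas 2.3.3, numpy 2.4.6 and scipy 1.17.1 (exact permutation tests), and figures in matplotlib 3.10.9. The members and lists were chosen with earlier results of these data known. Of the 6 pathway lists, all genes were named in lists of up to 7, and in longer ones 3 by smallest p and 3 by highest mean TPM, of which a few are not reported here. The alternatives were other pseudocounts, filters and scalings, an untrended and a robust limma fit, a block on the replicate number, and leaving out 1 library at a time. Sequences and chromosomes are from RefSeq on GRCm38.p6, a build other than that of the reads, and no coordinate was used for expression.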

Additional observations from a re-analysis of the deposited data

How the results depend on the processing

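Prkaa1 and Camkk2 were called higher under every alternative in which they were tested (Camkk2 was below a minimum mean of 5 TPM). Without a filter on low values, 0 members were lower (limma, 2 at an unadjusted p under 0.05). The members higher numbered 2 after quantile normalization and 2 without the 50 highest genes, and 2 were higher and 4 lower after rescaling by the median of ratios. With each library left out in turn, 2 to 5 members were higher and 0 to 2 lower, the 0 being without exercise replicate 2 (1 at an unadjusted p under 0.05). Over all genes, 7344 were higher and 822 lower, against 1403 and 2238 after rescaling, 2109 and 1753 after quantile normalization, 3432 and 1508 without the 50 highest genes, 4513 and 456 without a filter and 2622 and 410 without exercise replicate 2. Log2 fold changes that turned were those of Prkag2 (-0.13 after rescaling and -0.0725 after quantile normalization), Prkag3 (-0.025 after rescaling), Stk11 (-0.34 after rescaling, -0.16 after quantile normalization and -0.11 without the 50 highest genes) and Prkag1 (-0.064 to 0.049 with libraries left out). The cause was not tested.

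The subunit sums had log2 ratios of 0.11 for alpha, -0.47 for beta and 0.40 for gamma, which became -0.53, -1.10 and -0.24 after rescaling and -0.42, -0.96 and -0.073 after quantile normalization. With libraries left out they ran from -0.11 to 0.33, from -0.66 to -0.27 and from 0.33 to 0.47. The Prkaa1 share differed by 29.1 to 35.3 percentage points, the Prkab1 share by 17.1 to 23.8, the Prkag1 share by -9.11 to -8.49, the Prkag2 share by -1.41 to 3.49 and the Prkag3 share by 5.58 to 9.94.

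After quantile normalization, 0 LKB1 partners were higher and 1 lower, 2 and 1 of the loop kinases and phosphatases, 1 of the AMPK-binding regulators higher, 1 substrate higher and 5 lower, 4 related kinases higher, and 1 calmodulin gene or kinase higher and 4 lower. Over all 13288 tested genes, 2109 were higher and 1753 lower after quantile normalization. After rescaling the list counts were 0 and 2, 2 and 2, 1 and 1, 0 and 7, 4 and 0, and 1 and 5 in that order. On that scale 10.6% of all tested genes were higher and 16.8% lower. With libraries left out, the higher counts ranged from 0 to 1, 2 to 4, 1 to 4, 2 to 10, 5 to 8 and 1 to 3, and the lower counts reached 1 for the loop genes and ranged from 1 to 4 for the substrates. With the replicate number as a block, 5 members were higher and 2 lower, Prkag2 being called (limma adjusted p = 0.021). In that fit 7400 of the 13288 tested genes were higher and 830 lower. Deviations of same-numbered libraries correlated at -0.049 across genes. With 2 libraries per group this value cannot show whether same-numbered libraries were paired. With 2 libraries per group and TPM without counts, neither counting error nor depth could be assessed.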

Other observations

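The KEGG annotation in the table assigns 114 further genes to AMPK signalling, a list used after the values were seen. Of 94 tested, 47 were higher and 12 lower on TPM as deposited, where 55.3% of all tested genes were higher and 6.19% lower. Rescaling by the median of ratios left 4 higher and 34 lower, against 10.6 and 16.8% of all tested genes. The median log2 fold change was 0.42, against 0.53 for all tested genes. The genes named next were picked after their values were seen. Among the genes that fell were Fbp2, muscle fructose bisphosphatase, at 7.52 and 13.18 TPM in the exercise libraries, against 95.8 and 137 TPM in the control libraries (log2 fold change -3.39, and -4.00 after rescaling), and Scd1, stearoyl-CoA desaturase, at 3.78 and 7.68 TPM, against 49.4 and 88.9 TPM (-3.38, and -3.96 after rescaling). Scd1 is also made by adipocytes, whose marker Adipoq was at 0.21 and 1.43 TPM in the exercise libraries, against 8.06 and 38.4 TPM in the control libraries, and their part was not tested. Slc2a4, the gene of the glucose transporter GLUT4 that AMPK and insulin bring to the surface of the fiber, was at 72.1 and 60.3 TPM in the exercise libraries, against 138 and 157 TPM in the control libraries (log2 fold change -1.14, limma adjusted p = 0.0030, and -1.77 after rescaling). Cpt1b, the muscle carnitine palmitoyltransferase that malonyl-CoA inhibits, was at 31.4 and 37.5 TPM in the exercise libraries, against 47.1 and 59.6 TPM in the control libraries (-0.61, adjusted p = 0.019, and -1.23 after rescaling). General fiber markers also fell, with 4 of 8 lower and 0 higher, where 6.19% of all tested genes were lower. The part of fiber RNA in the falls of Fbp2, Slc2a4 and Cpt1b was not tested. Scd2, by contrast, was at 79.6 and 86.0 TPM in the exercise libraries, against 32.4 and 34.9 TPM in the control libraries (1.27, and 0.65 after rescaling), so that the desaturase genes differed in opposite directions. Ccnd1, cyclin D1, rose as well and was at 18.5 and 19.5 TPM in the exercise libraries, against 6.38 and 6.03 TPM in the control libraries (1.47, and 0.89 after rescaling).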
